A study of Homo sapiens with 6 samples.

Results

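Expression of 10 genes for enzymes of serine synthesis and folate one-carbon metabolism was examined in ARPE-19 cells, an established human RPE line. The genes were PHGDH, PSAT1, PSPH, SHMT1, SHMT2, MTHFD1, MTHFD1L, MTHFD2, MTHFD2L and ALDH1L2. They were chosen by symbol, with earlier results of these data known, and all 10 were among the 33496 genes with values. RNA-seq was performed on 6 libraries of wild-type cells, all treated with erastin (5 μM, 24 h), an inhibitor of cystine uptake that triggers ferroptosis. The Era group (3 libraries) had no other treatment, and the Era+VK group (3 libraries) had first been given VK1, vitamin K1, at 10 μM for 1 h. Cells never exposed to erastin are not analysed here, and each comparison therefore asks how expression in erastin-treated cells differed when VK1 had been given first. The values were FPKM, that is fragments divided by transcript length and by the fragments mapped in each library. They allow comparison between genes, while between libraries they also move with the other transcripts of each library. The study describes its experiments in general as independent repeats, but the labels do not tie the libraries of a group to separate cultures, and p-values measure the spread between these samples, part of which may be technical.

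The cells carried some features of RPE and lacked others. MITF (15.5 to 18.6 FPKM) and OTX2 (27.5 to 31.4 FPKM), transcription factors of the RPE lineage, and the keratin KRT8 (171 to 209 FPKM) were present in every library, whereas the visual cycle gene RPE65 did not exceed 0.02 FPKM and the pigment gene TYR did not exceed 0.17 FPKM. BEST1, a chloride channel of RPE, varied from 0.60 to 56.98 FPKM without regard to group. Of 6 tested RPE markers none was called between the groups in limma, 3 had a negative log2 fold change, and the median was 0.02. MITF and KRT8 had an unadjusted p under 0.05 in limma (2 of 6, against 15.8% of all genes tested). For both, every Era+VK library lay above every Era library, as was the case for 15.1% of the genes tested. VIM, a mesenchymal filament gene, was at 911.3 to 952.4 FPKM in Era and lower without overlap, at 750.2 to 792.1 FPKM, in Era+VK (log2 fold change -0.28, adjusted p = 0.0644 in limma). Its part in the results below was not tested. CDH1, the epithelial cadherin, did not exceed 0.04 FPKM. Between 24143 and 24601 genes per library had a value above 0, and the correlation of log2(FPKM + 1) between libraries ranged from 0.984 to 0.993 across the genes tested. The depth of the libraries is unknown.

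Serine is made from a glycolytic intermediate by PHGDH, PSAT1 and PSPH acting in turn in the cytosol. Serine hydroxymethyltransferase then splits serine into glycine and a carbon unit carried by folate, and a parallel set of enzymes handles that unit in the mitochondrion (SHMT2, MTHFD2 or MTHFD2L, MTHFD1L, ALDH1L2) and in the cytosol (SHMT1, MTHFD1). The carbon unit leaves the mitochondrion as formate and is used in the cytosol for purines and thymidylate, and serine also gives its carbon skeleton to cysteine, the amino acid that erastin-treated cells take up less of in the form of cystine.

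VK1 pretreatment was accompanied by lower expression of serine synthesis and mitochondrial folate genes, while the cytosolic folate genes did not pass the test. PSAT1, PSPH, SHMT2, MTHFD2 and MTHFD1L were lower in Era+VK, and none of the 10 genes was called higher (0.134% of the genes tested were). The change of the mean ranged from -22.8% for MTHFD1L to -47.9% for PSAT1. This was 5 of the 8 genes that reached a mean of 1 FPKM and were tested, against a background of 0.484% of the 11981 genes tested that were called lower and 0.618% called in either direction (limma on log2(FPKM + 1), adjusted p under 0.05). For 6 of the 8, these 5 and PHGDH, every Era+VK library lay below every Era library, as was the case for 7.04% of the genes tested, and for none was every Era+VK library above every Era library (15.1% of the genes tested). The 10 genes were chosen with earlier results of these data known, and the study had already reported PSAT1 as decreased after VK1. These shares are therefore a description and not an independent test. MTHFD2L and ALDH1L2 stayed below the limit of 1 FPKM and were not tested. The summed FPKM of the 10 genes was 334.5 ± 1.51 (SD, n = 3) in Era and 214.7 ± 23.5 (n = 3) in Era+VK. In bulk RNA, a smaller number of expressing cells and less RNA per cell cannot be told apart.

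**Figure D1:**
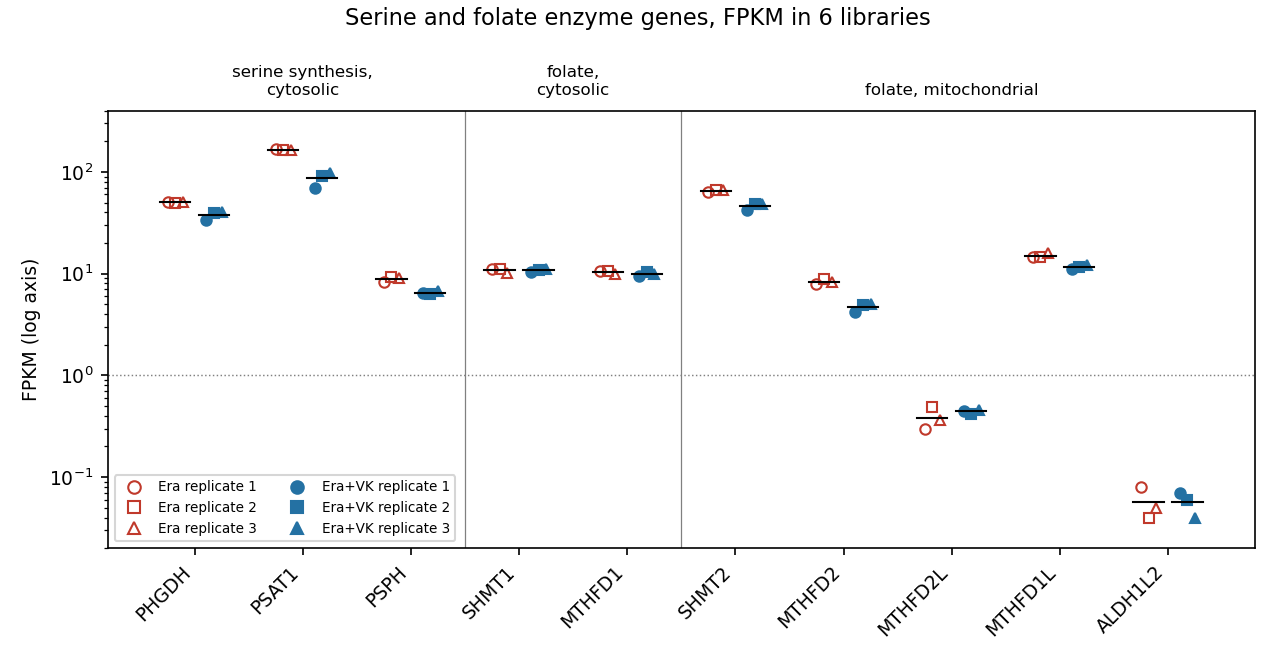
FPKM of the 10 enzyme genes (log axis) in each of the 3 Era libraries (open symbols) and 3 Era+VK libraries (filled symbols), with black bars at group means and a dotted line at 1 FPKM. The 2 groups are apart for PHGDH, PSAT1, PSPH, SHMT2, MTHFD2 and MTHFD1L and overlap for SHMT1, MTHFD1, MTHFD2L and ALDH1L2.

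In Era the order of mean levels was PSAT1, SHMT2, PHGDH, MTHFD1L, SHMT1, MTHFD1, PSPH, MTHFD2, MTHFD2L and ALDH1L2, from 165.2 FPKM for PSAT1 to 0.0567 FPKM for ALDH1L2. SHMT1 and MTHFD1 overlapped between neighbours in that order, as did PSPH and MTHFD2, and all other neighbours were apart in the 3 Era libraries. The order of means was the same in Era+VK. There, however, the libraries of MTHFD1L overlapped with those of SHMT1, and PSPH and MTHFD2 no longer overlapped. PSAT1 alone held 50.3%, 49.0% and 48.9% of the summed FPKM of the 10 genes in the Era libraries and 37.1%, 40.5% and 42.1% in the Era+VK libraries.

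Promoter sequences were available from RefSeq (GRCh38.p14) for 7 of the 10 genes, and none is shown for PSPH, SHMT2 and ALDH1L2. The 250 bases before each start site were searched on both strands for TGATGNAA, the core of the C/EBP-ATF response element that ATF4 binds, for CCAAT, the box bound by NF-Y, and for CACGTG, the E box bound by MYC. The windows of 3 genes that were lower in Era+VK (PSAT1, MTHFD2 and MTHFD1L) are printed beside that of SHMT1, which did not pass the test, so that the letters of both kinds of promoter can be read. MTHFD1L had 4 windows for its start sites, of which the first is shown. Matches are in capitals, and the window of MTHFD2 ends at base 197, where an annotated transcript begins. The windows are PSAT1 at chr9:78296875-78297124 (plus strand), MTHFD2 at chr2:74198365-74198561 (plus strand), MTHFD1L at chr6:150866236-150866485 (plus strand) and SHMT1 at chr17:18363551-18363800 (minus strand).
PSAT1: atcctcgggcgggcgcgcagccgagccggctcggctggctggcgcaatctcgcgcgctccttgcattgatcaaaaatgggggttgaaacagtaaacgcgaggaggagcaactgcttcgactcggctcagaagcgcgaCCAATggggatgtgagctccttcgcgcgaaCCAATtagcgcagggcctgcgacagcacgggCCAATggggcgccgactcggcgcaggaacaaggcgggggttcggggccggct
MTHFD2: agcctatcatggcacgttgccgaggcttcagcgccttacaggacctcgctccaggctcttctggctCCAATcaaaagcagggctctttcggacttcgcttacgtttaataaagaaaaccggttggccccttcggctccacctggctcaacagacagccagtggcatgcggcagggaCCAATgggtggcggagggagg
MTHFD1L: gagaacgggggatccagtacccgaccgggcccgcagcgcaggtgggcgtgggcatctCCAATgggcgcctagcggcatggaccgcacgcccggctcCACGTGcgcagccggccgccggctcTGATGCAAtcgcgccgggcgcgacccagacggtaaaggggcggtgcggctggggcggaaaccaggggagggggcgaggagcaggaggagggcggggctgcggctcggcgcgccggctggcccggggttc
SHMT1: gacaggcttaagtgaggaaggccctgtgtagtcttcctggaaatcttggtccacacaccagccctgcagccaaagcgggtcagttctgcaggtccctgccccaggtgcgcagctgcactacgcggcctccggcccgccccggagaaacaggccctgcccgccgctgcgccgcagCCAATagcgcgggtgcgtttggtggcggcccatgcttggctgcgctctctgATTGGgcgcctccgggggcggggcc
The response element letters occurred in 1 of the 7 genes, as TGATGCAA in MTHFD1L at -129 to -122 (position -1 is the base before the start site), and counted by window in 2 overlapping windows of that gene among the 11 windows of the 7 genes, against 3.14% of all 35116 windows of the same length. CCAAT occurred in 6 of the 7 genes and in 8 of the 11 windows, against 32% of all windows. The windows of MTHFD1L that hold CCAAT overlap and share a single site, which was counted in each, so these windows are not independent. A share by gene over all genes was not counted. CCAAT stood at -113, -83 and -52 in PSAT1 and at -184 and -74 in MTHFD2, while SHMT1 carried a copy on each strand. PHGDH held CCAAT at -71, MTHFD1 at -216, and MTHFD2L held none. CACGTG was found in MTHFD1L at -154 and in MTHFD1 at -15, that is in 3 of the 11 windows, against 6.34% of all windows. The MTHFD1L site was again counted in 2 overlapping windows. A match of letters is a description of the sequence and not a binding site, and the same CCAAT letters were present in genes that were lower in Era+VK and in SHMT1 and MTHFD1, which did not pass the test.

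The 3 genes of serine synthesis were lower in Era+VK to unequal degrees, and PHGDH did not pass the threshold. PHGDH (chromosome 1, 119648411 to 119744226 on GRCh38) encodes the dehydrogenase of the first step. Its FPKM was 50.9, 49.0 and 50.7 in Era and 34.0, 39.4 and 40.7 in Era+VK. The groups did not overlap, and the lowest value was that of Era+VK replicate 1. The log2 fold change was -0.39 (SE 0.07, 95% interval -0.55 to -0.24) and limma gave an adjusted p of 0.0552, just outside the threshold.

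PSAT1 (chromosome 9, 78297143 to 78330093), the aminotransferase of the second step, showed the largest difference of the 10 genes and ranked 10 from the lowest among all 11981 log2 fold changes. It was measured at 168.7, 163.2 and 163.8 FPKM in Era and at 69.9, 90.4 and 98.1 FPKM in Era+VK. The Era libraries lay close together, and the Era+VK libraries were spread more widely (SD 3.05 and 14.6 FPKM). Expression fell by 47.9% of the Era mean, with a log2 fold change of -0.95 (SE 0.11, 95% interval -1.21 to -0.69, adjusted p = 0.0196 in limma). The interval did not reach that of PHGDH or of PSPH, although the difference between genes was not tested.

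PSPH (chromosome 7, 56011051 to 56051604), the phosphatase of the last step, was the least expressed of the 3. The values were 8.24, 9.22 and 8.98 FPKM in Era and 6.38, 6.32 and 6.78 FPKM in Era+VK, with no overlap. The log2 fold change was -0.39 (SE 0.06, 95% interval -0.52 to -0.26, adjusted p = 0.0331 in limma). This estimate equals that of PHGDH at 2 decimals, and the smaller spread of PSPH placed it on the other side of the threshold. The summed FPKM of the 3 genes was 224.2 ± 3.29 (SD, n = 3) in Era and 130.7 ± 18.3 (n = 3) in Era+VK.

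The 3 mitochondrial folate genes that were expressed above 1 FPKM were all lower in Era+VK. SHMT2 (chromosome 12, 57229327 to 57234935), the mitochondrial serine hydroxymethyltransferase, was measured at 63.4, 65.9 and 66.7 FPKM in Era and at 42.4, 48.6 and 48.6 FPKM in Era+VK. It was the second most abundant transcript of the 10 in both groups. Expression fell by 28.8% of the Era mean, with a log2 fold change of -0.48 (SE 0.06, 95% interval -0.62 to -0.34, adjusted p = 0.0213 in limma).

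MTHFD2 (chromosome 2, 74198562 to 74217565) encodes the mitochondrial methylenetetrahydrofolate dehydrogenase and cyclohydrolase, which is high in embryonic and proliferating cells and low in most adult tissues. Its FPKM was 7.85, 8.87 and 8.34 in Era and 4.18, 4.92 and 5.0 in Era+VK. All 3 Era+VK libraries thus lay well below the lowest Era library. Expression fell by 43.7% of the Era mean (log2 fold change -0.72, SE 0.07, 95% interval -0.88 to -0.55, adjusted p = 0.0125 in limma), the second largest difference among the 10 genes. The gene shares 1324 exonic bases with SLC4A5 on the opposite strand, and 295 with AC006030.1, neither of which exceeded 0.21 FPKM.

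MTHFD1L (chromosome 6, 150865549 to 151101887), the mitochondrial formate-producing synthetase, was measured at 14.6, 14.5 and 16.0 FPKM in Era and at 11.1, 11.6 and 12.2 FPKM in Era+VK. The groups were apart, and the log2 fold change of -0.35 (SE 0.06, 95% interval -0.47 to -0.22) was the smallest of the 5 that passed, and its adjusted p in limma was 0.0479. Over the 5 mitochondrial genes the summed FPKM was 89.1 ± 2.67 (SD, n = 3) in Era and 63.3 ± 4.51 (n = 3) in Era+VK.

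MTHFD2L and ALDH1L2 contributed little to these sums. MTHFD2L (chromosome 4, 74114174 to 74303099), a paralog of MTHFD2 for the same reaction, was listed at 0.30, 0.49 and 0.36 FPKM in Era and at 0.45, 0.42 and 0.46 FPKM in Era+VK, and the groups overlapped. ALDH1L2 (chromosome 12, 105019784 to 105084577), the mitochondrial formyltetrahydrofolate dehydrogenase, was at 0.04 to 0.08 FPKM in Era and at 0.04 to 0.07 FPKM in Era+VK. At these levels no direction was read from either gene.

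The cytosolic folate genes did not pass the test. SHMT1 (chromosome 17, 18327860 to 18363563), the cytosolic hydroxymethyltransferase, was at 11.1, 11.1 and 10.1 FPKM in Era and at 10.3, 10.9 and 11.2 FPKM in Era+VK. The group means were both 10.8 FPKM, with SD 0.552 in Era and 0.431 in Era+VK, and the 95% interval of the log2 fold change was -0.12 to 0.13 (adjusted p = 0.993 in limma). SHMT1 shares 196 exonic bases with SMCR8 on the opposite strand, and SMCR8 was at 7.71 to 9.20 FPKM. Whether strand was used in the counting is not stated, so reads from that stretch cannot be assigned with certainty.

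MTHFD1 (chromosome 14, 64388031 to 64463457), the cytosolic enzyme with all 3 folate activities, was at 10.6, 10.6 and 9.92 FPKM in Era and at 9.44, 10.5 and 9.92 FPKM in Era+VK. The gene shares 178 exonic bases with ZBTB25 on the opposite strand (0.98 to 1.37 FPKM). The groups overlapped, and the log2 fold change of MTHFD1 was -0.06 (SE 0.05, 95% interval -0.18 to 0.07, adjusted p = 0.645 in limma). The sum of both cytosolic folate genes came to 21.2 ± 0.944 (SD, n = 3) in Era and 20.7 ± 0.846 (n = 3) in Era+VK, in FPKM. Both intervals contain 0 and leave out a fall of the size seen in SHMT2 or MTHFD2.

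**Figure D2:**
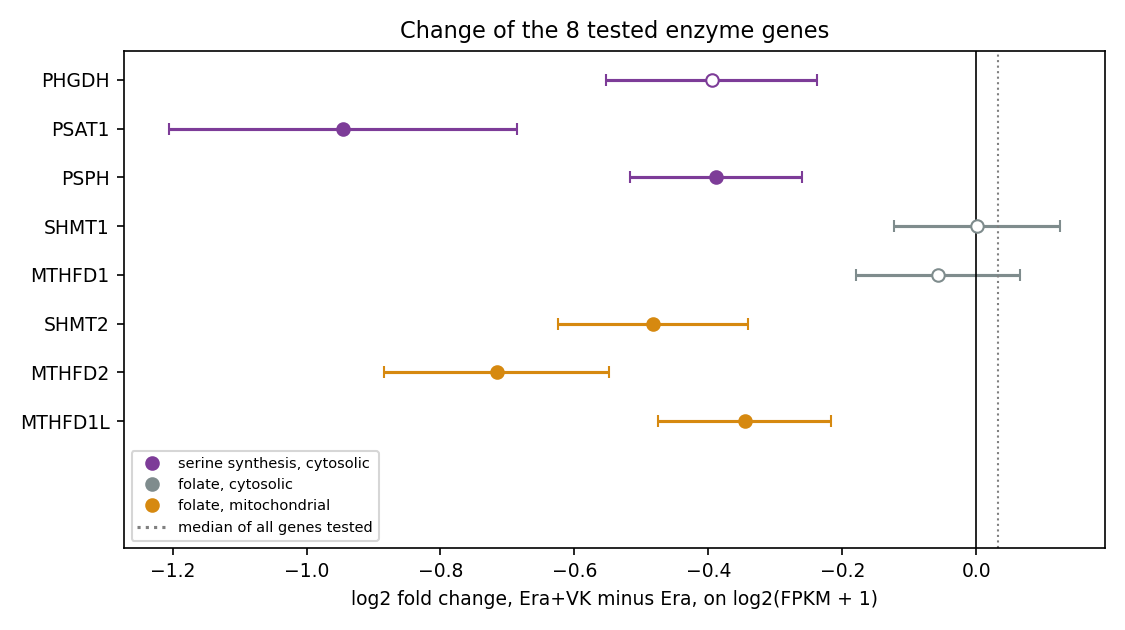
Log2 fold change (Era+VK minus Era, on log2(FPKM + 1)) of the 8 tested genes with 95% intervals, coloured by role, with filled points for an adjusted p under 0.05 and a dotted line at the median of all genes tested (0.03). The serine synthesis and mitochondrial folate genes lie between -0.95 and -0.35, and SHMT1 and MTHFD1 lie at 0.00 and -0.06.

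Taking compartment alone, the cytosolic and mitochondrial genes were alike in their median. The median log2 fold change was -0.39 over the 5 cytosolic genes and -0.35 over the 5 mitochondrial genes, beside 0.03 over all genes tested. The mitochondrial median includes the untested MTHFD2L (0.06) and ALDH1L2 (0.00), from which no direction was read, and depends on them. The 3 mitochondrial genes above 1 FPKM were at -0.72, -0.48 and -0.35. Of the 5 cytosolic genes 2 were called, and both belong to serine synthesis. Of the 5 mitochondrial genes 3 were called. The gene annotation in the files places SHMT2, MTHFD2, MTHFD2L, MTHFD1L and ALDH1L2 in the mitochondrial matrix. The division is less clean in its broader terms, since MTHFD1 is also listed under mitochondrion and SHMT2 and MTHFD1L are also listed under cytosol.

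To compare the compartments at the same reaction, the ratio of the mitochondrial to the cytosolic enzyme gene was taken within each library for 4 pairs, so that no scaling between libraries enters. SHMT2 over SHMT1 was 5.72, 5.92 and 6.58 in Era and 4.11, 4.47 and 4.35 in Era+VK. MTHFD2 over MTHFD1 was 0.738, 0.839 and 0.841 in Era and 0.443, 0.470 and 0.504 in Era+VK. MTHFD1L over MTHFD1 was 1.38, 1.37 and 1.61 in Era and 1.17, 1.11 and 1.22 in Era+VK. In these 3 pairs every ratio of Era+VK lay below every ratio of Era, and the balance moved away from the mitochondrial gene by -0.49, -0.77 and -0.31 on the log2 scale. Each gave p = 0.1 in a two-sided exact permutation test, the smallest p that 3 against 3 libraries can give, and 0.133 after Benjamini-Hochberg adjustment over the 4 pairs, so none could pass 0.05. The pairs with MTHFD1 share that denominator and are not independent.

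The last pair, MTHFD2L over MTHFD1, was 0.0282, 0.0464 and 0.0363 in Era and 0.0477, 0.0402 and 0.0464 in Era+VK. These ratios rest on values under 0.5 FPKM and overlapped between groups, with a log2 difference of 0.30 (exact permutation p = 0.2) that turned to -0.62 under quantile normalization.

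**Figure D3:**
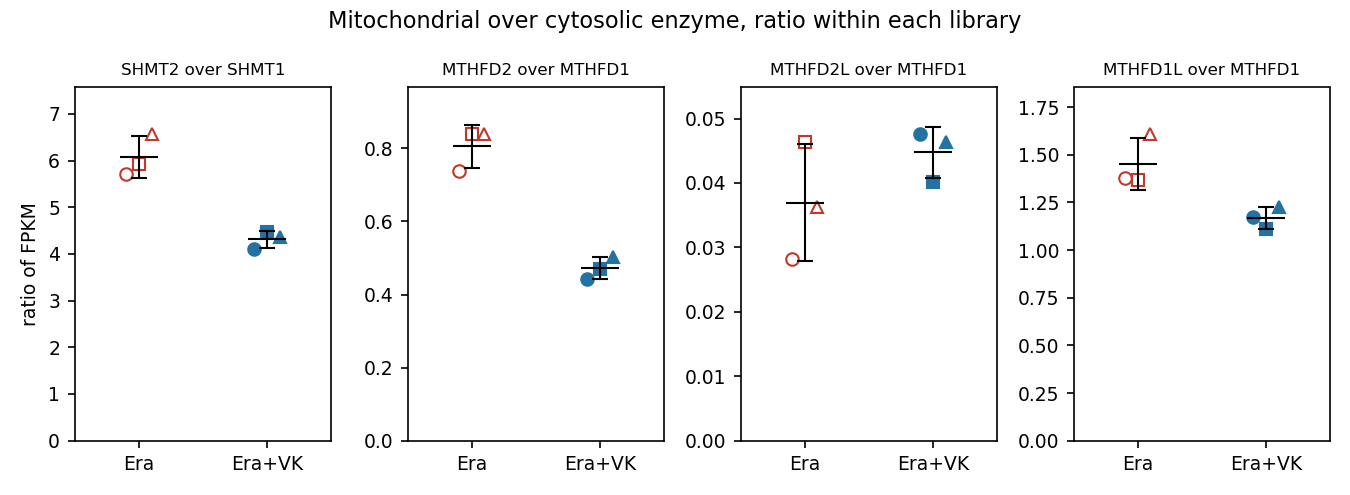
Ratio of the FPKM of a mitochondrial enzyme gene to that of its cytosolic counterpart in each Era library (open symbols) and Era+VK library (filled symbols), with the group mean and SD in black and each axis starting at 0. Group means were 6.08 and 4.31 for SHMT2 over SHMT1, 0.806 and 0.472 for MTHFD2 over MTHFD1, 0.0370 and 0.0447 for MTHFD2L over MTHFD1, and 1.45 and 1.17 for MTHFD1L over MTHFD1.

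The Era+VK libraries were not alike. Among the 6 genes whose groups were apart, 5 had their lowest value in Era+VK replicate 1, PSPH had it in replicate 2, and all 6 had their highest Era+VK value in replicate 3. The difference from the Era mean of PSAT1 was -1.23 in replicate 1, -0.86 in replicate 2 and -0.75 in replicate 3 on the log2 scale. For SHMT2 it was -0.61, -0.42 and -0.42, and for MTHFD2 it was -0.85, -0.66 and -0.64. The libraries also differed in erythroid transcripts, which RPE cells do not normally make. The summed FPKM of 16 erythroid genes was 0.31 to 0.63 in Era and 0.40 in Era+VK replicate 1, but 241 and 234 in Era+VK replicates 2 and 3. HBG2, a fetal globin, reached 101.8 FPKM, while HBB, the adult beta-globin, did not exceed 0.04 FPKM. Of the 6 erythroid genes tested none was called in limma, and their median log2 fold change was 3.14. All 6 had an unadjusted p under 0.05 (15.8% of all genes tested had).

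Without Era+VK replicates 2 and 3, the log2 fold change was -1.23 for PSAT1, -0.85 for MTHFD2, -0.61 for SHMT2 and -0.55 for PHGDH. It was -0.41 for both PSPH and MTHFD1L. No p-value is given here, since a single library has no spread of its own. The differences of the 6 genes in Era+VK replicate 1 were as large or larger than over all 3 Era+VK libraries, a mean that includes that library. This rests on 1 library, and the part of the erythroid transcripts in the result was not tested. Markers of dividing cells had a summed level of 80.1 to 81.8 FPKM in Era and 87.3 to 95.1 FPKM in Era+VK. Of these 6 markers none was called in limma, 0 had a negative log2 fold change (36.7% of all genes tested had), and the median was 0.13. TOP2A and BUB1 had an unadjusted p under 0.05 in limma (2 of 6, against 15.8% of all genes tested). For both, every Era+VK library lay above every Era library, as was the case for 15.1% of the genes tested. The part of the dividing cell markers in the result was not tested.

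**Figure D4:**
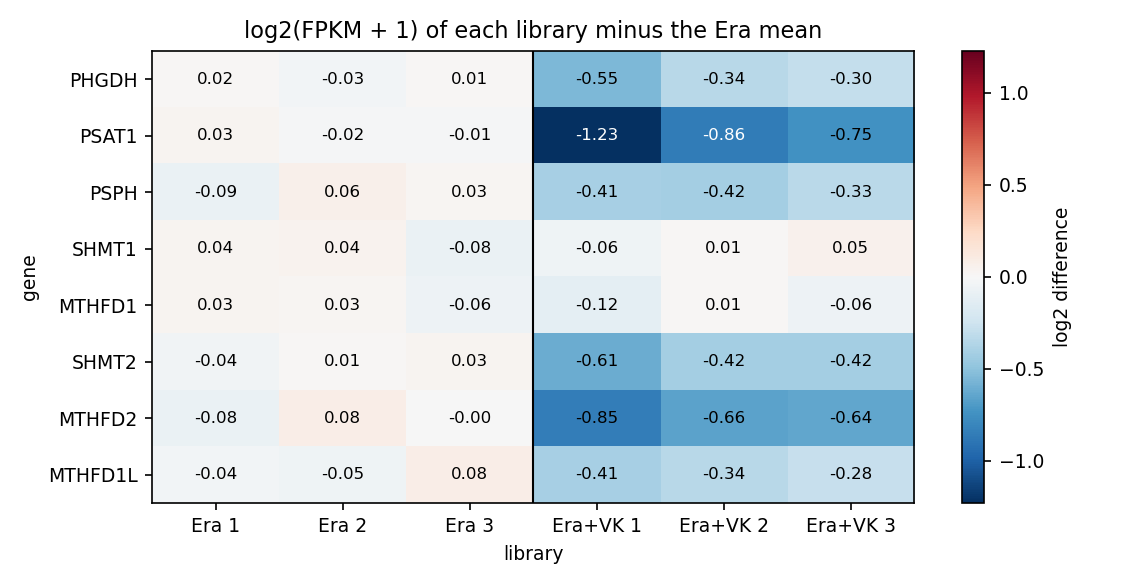
Difference of log2(FPKM + 1) from the Era mean for the 8 tested genes (vertical axis) in each of the 6 libraries (horizontal axis), in blue where lower and red where higher, with the value printed in each cell. Era+VK replicate 1 is the lowest library for PHGDH, PSAT1, SHMT2, MTHFD2 and MTHFD1L, and SHMT1 and MTHFD1 differ from the Era mean by -0.12 to 0.05.

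The calls depended on the number of Era libraries. When any 1 Era library was left out, no member passed in limma, and the 5 genes had adjusted p-values of 0.0665 to 0.176, although all 15 log2 fold changes remained negative and 6 of 8 genes kept an unadjusted p under 0.05. Without Era replicate 1, 2 or 3, only 2, 2 and 5 genes were called in the whole data, against 74. Without Era+VK replicate 1, 2 or 3, the called members numbered 4, 3 and 3. In the same fits 70, 60 and 42 of the 11981 genes tested were called.

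The wider pathway was examined with 6 lists of 43 genes, of which 34 reached a mean of 1 FPKM. Of these 1 was called lower and 0 were called higher in limma, 7 had an unadjusted p under 0.05 (15.8% of all genes tested had), and the median log2 fold change was 0.00. The groups did not overlap for 7 of the 34 on the lower side (20.6%, against 7.04% of all genes tested) and for 3 on the higher side (8.82%, against 15.1%). The called gene was CBS, the enzyme that joins homocysteine and serine on the way to cysteine. It was at 9.52, 10.1 and 11.3 FPKM in Era and at 5.65, 6.25 and 7.47 FPKM in Era+VK (log2 fold change -0.60, SE 0.10, adjusted p = 0.0479). CBS has a near-identical copy in the human assembly, CBSL, so that reads may be split between them. Added together they gave 33.3 ± 1.98 FPKM (SD, n = 3) in the Era libraries and 20.8 ± 2.02 FPKM (n = 3) in the Era+VK libraries, a difference of -37.4%.

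Among the other genes of serine supply and use, the transporters did not move as a group. SLC1A4, a carrier of neutral amino acids including serine, averaged 9.31 in Era and 6.66 in Era+VK (FPKM), with no overlap (log2 fold change -0.43, adjusted p = 0.0577 in limma). SLC1A5, the glutamine carrier, was at 4.04, 8.93 and 7.27 FPKM in the Era+VK libraries, which lay on both sides of the Era values of 5.45 to 6.36 FPKM. SFXN1, which carries serine into mitochondria, averaged 7.96 and 8.66 FPKM (log2 fold change 0.11, adjusted p = 0.308).

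None of the 7 tested genes for folate transport and reduction was called in limma, and the median was -0.01. Only 1 had an unadjusted p under 0.05 (15.8% of all genes tested had). That gene was FPGS, which adds glutamates to folate so that it is retained in the cell (13.0 and 11.4 FPKM on average, log2 fold change -0.17, adjusted p = 0.197). Of 3 tested genes of the glycine cleavage system 0 were called and 0 had an unadjusted p under 0.05, with a median of 0.01.

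The users of folate carbon units in the cytosol were not called. TYMS, the thymidylate synthase, had 68.9 ± 2.30 FPKM (SD, n = 3) in Era and 71.3 ± 7.49 FPKM (n = 3) in Era+VK (adjusted p = 0.821 for a log2 fold change of 0.04 in limma). Of the 6 tested genes in this list of other folate enzymes 0 were called and 1 had an unadjusted p under 0.05 (15.8% of all genes tested had), with a median of 0.04. Of 6 purine synthesis genes 5 had a negative log2 fold change, against 36.7% of all genes tested, and the median was -0.13. An unadjusted p under 0.05 in limma was found for 2 of the 6, both lower (15.8% of all genes tested had one in either direction), and 0 were called. In 3 of the 6 (GART, PAICS and ATIC) every Era+VK library lay below every Era library, beside 7.04% of all genes tested. PAICS, a bifunctional enzyme of that pathway, had 29.1 to 29.5 FPKM in Era and 25.5 to 26.2 FPKM in Era+VK (log2 fold change -0.17, adjusted p = 0.103). In the methionine cycle 0 of 3 tested genes were called and 0 had an unadjusted p under 0.05, with a median of -0.06, and BHMT was not analysed here.

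Of 3 transcription factors known to act on these genes, only ATF4, the main factor of the amino acid response, was called, and it was lower in Era+VK. Its FPKM was 134.3, 138.6 and 145.7 in Era and 88.2, 98.8 and 98.3 in Era+VK, with no overlap and the lowest value in replicate 1 (log2 fold change -0.55, SE 0.06, adjusted p = 0.0128 in limma). MYC averaged 36.0 and 31.4 FPKM, in this order, (log2 fold change -0.19, adjusted p = 0.159). NFE2L2, which encodes NRF2, was at 8.69 and 9.16 FPKM (log2 fold change 0.07, adjusted p = 0.460). The groups did not overlap for these factors either. Every Era+VK library was lower for MYC (as for 7.04% of the genes tested) and higher for NFE2L2 (as for 15.1%).

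**Figure D5:**
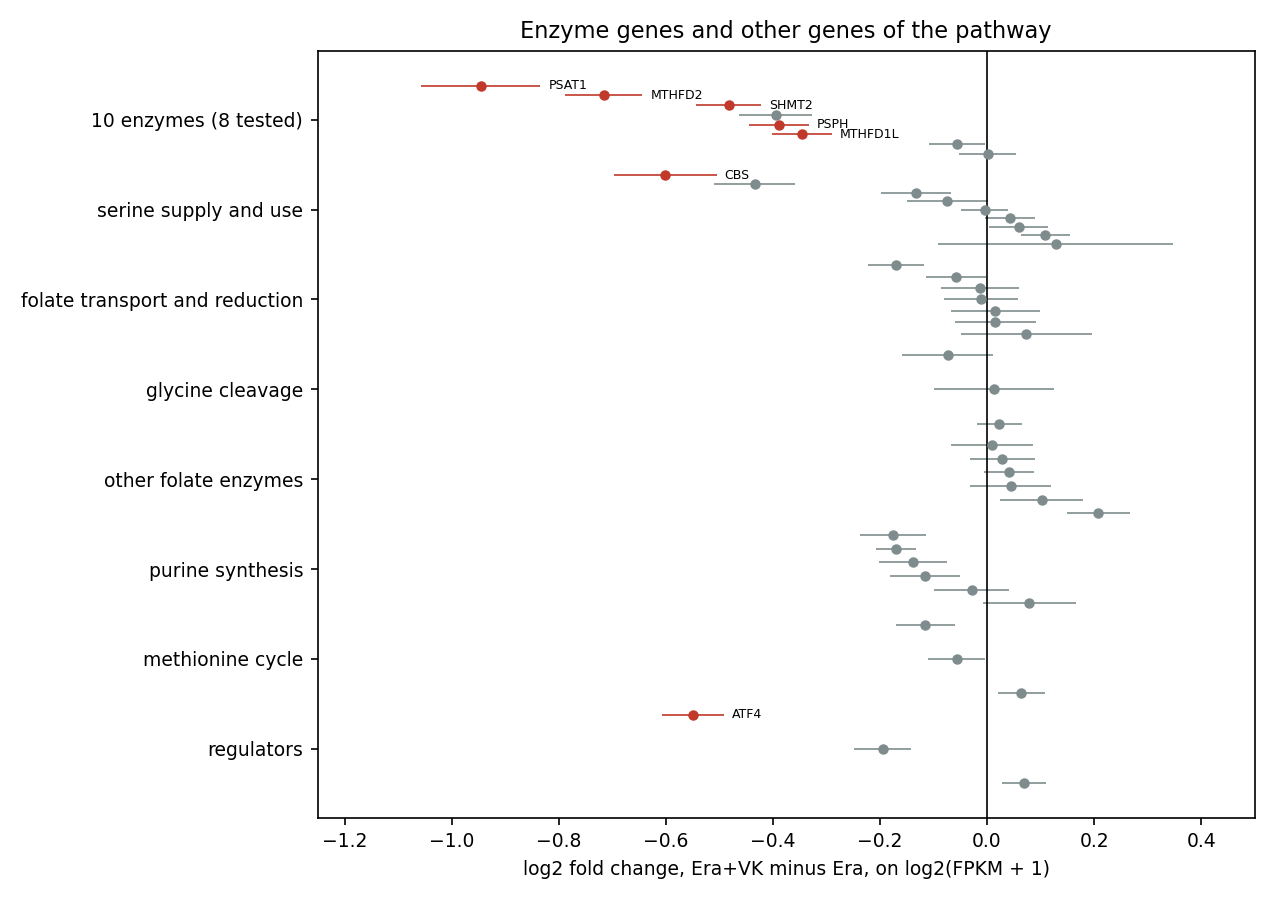
Log2 fold change (Era+VK minus Era, on log2(FPKM + 1)) with its standard error for the 8 tested enzyme genes, the 34 tested genes of the 6 pathway lists and 3 transcription factors, in red and named where the adjusted p was under 0.05. Outside the enzymes, CBS (-0.60) and ATF4 (-0.55) are named, and the medians of the 6 lists lie between -0.13 and 0.04.

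For each of the 5 called enzymes, the 3 genes closest to it were found by the root-mean-square difference of log2(FPKM + 1), centred on the Era mean, over the 6 libraries. Closest to PSAT1 were CTH (0.0926), which releases cysteine from cystathionine, PAPPA2 (0.0933), a protease, and PCK2 (0.0933), the mitochondrial phosphoenolpyruvate carboxykinase. From Era to Era+VK, PCK2 went from 20.8 to 10.3 FPKM and CTH from 8.80 to 4.13 FPKM on average. Closest to SHMT2 were 3 cytosolic aminoacyl-tRNA synthetases, TARS1 (0.0321), MARS1 (0.0343) and IARS1 (0.0436), whose log2 fold changes were -0.46, -0.52 and -0.53.

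Closest to MTHFD2 were HYI (0.0475), CBSL (0.0724) and EIF4EBP1 (0.0797), a repressor of translation initiation. MTHFD1L was closest to GLIPR1 (0.0221), the glutamyl-prolyl-tRNA synthetase EPRS1 (0.0279) and the integrin ITGA5 (0.0349). PSPH was closest to AJAP1 (0.0365), MARCHF4 (0.0399) and the poliovirus receptor PVR (0.0422). Since all pairs share the same 6 libraries, likeness of this kind is a description of the profiles.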

How the data were processed

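RNA-seq was performed by the authors on total RNA of ARPE-19 cells with paired-end Illumina NovaSeq sequencing, and FPKM values per gene were deposited for 6 libraries, 3 Era and 3 Era+VK. The submitters' processing notes name cutadapt, HISAT2 and StringTie 2.1.6, without parameters, and the mouse build mm10. The gene identifiers are human Ensembl identifiers, so the build used is not settled and no coordinate was taken from the files. The annotation, strandedness and filters are not given in the sources used here. In the labels the number after ARPE rises with each sample, but every title names ARPE-19, and all 6 were taken as that line. Doses and times are those of the study's methods.

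An FPKM depends on everything mapped in its library, so abundant genes can shift all others, and mitochondrially encoded genes held 16.0% to 18.5% of the FPKM. They carry no depth. Low values of 1761 to 1861 single-exon genes per library showed no whole-read step (concentration at most 0.304, where simulated whole reads gave at least 0.946), so errors of counting cannot be stated and count models were not used.

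Era+VK was compared with Era using limma 3.58.1 in R 4.3.3 (eBayes, trend on) on log2(FPKM + 1). The 11981 genes whose mean over the libraries reached 1 FPKM entered, the replicate number was not modelled, and p-values were adjusted by Benjamini-Hochberg over all of them at a threshold of 0.05. Fold changes on that scale understate the change of low genes. Ratios were compared with exact permutation tests in scipy 1.17.1. On simulated data of this comparison over 11981 genes, limma called 99 of 106 genes changed by 1 on the log2 scale and 77 of 94 changed by 0.5, with 7 false calls, and 0 with nothing changed. The simulation drew independent normal noise for each gene and library, with the same variance in both groups. It held no effect shared by the genes of a library, so these rates may not be those of the data.

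The 10 members and all lists were chosen with earlier results of these data known. The genes named are the members, every gene of the pathway, regulator and marker lists, and the 3 nearest genes of each called member; CBSL was added after its value was seen. Some genes of the lists are not reported here by name. Positions (GENCODE 29, GRCh38) were matched by Ensembl identifier and promoters (RefSeq, GRCh38.p14) by symbol. Pseudogenes of the members did not exceed 0.21 FPKM. Alternatives were a pseudocount of 0.1, other filters, 3 other scalings, the replicate number as a block, and libraries left out.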

Additional observations from a re-analysis of the deposited data

How the results depend on the processing

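Over 14 alternatives the log2 fold changes of PSAT1, PSPH, SHMT2, MTHFD2, MTHFD1L and PHGDH stayed negative, and those of MTHFD1 did too. The number of enzyme genes called was 5 as reported, 5 with a pseudocount of 0.1 and 6, with PHGDH added, when each library had to reach 1 FPKM, under quantile normalization, on rescaling without mitochondrially encoded genes and under median-of-ratios scaling. It was 0 in limma with no filter on low genes, where 6 of 10 members had an unadjusted p under 0.05, adjusted p-values of the 5 genes were 0.0785 to 0.155, and 31325 genes were tested with 1 call in all. Leaving out 1 library at a time gave 0 to 4 called enzyme genes. Over all genes the number called was 74, and it was 122 under the minimum in every library, 112 under quantile normalization, 118 under median-of-ratios scaling, 42 with the block, and 2 to 70 with 1 library left out. With Era+VK replicates 2 and 3 both left out it was 35.

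With the replicate number as a block 3 enzyme genes were called, since PSPH (adjusted p = 0.0757 in limma) and MTHFD1L (0.0683) were lost. Same-numbered libraries deviated together only weakly, with correlations of 0.0709, 0.104 and 0.0210. Each Era+VK library correlated best with the Era library of its number, for replicate 3 narrowly (0.0210, against 0.0201 with Era replicate 2). Era replicate 3, however, correlated best with Era+VK replicate 1 (0.0401). Whether the numbers pair the libraries is therefore not settled. The labels do not state a pairing, and the main fit did not model one.

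The ratio of MTHFD2L to MTHFD1 turned to -0.62 under quantile normalization, and the other 3 ratios kept their direction, with ranges when 1 library was left out of -0.54 to -0.43 for SHMT2 over SHMT1, -0.83 to -0.72 for MTHFD2 over MTHFD1 and -0.35 to -0.23 for MTHFD1L over MTHFD1. The median of the 5 cytosolic genes ranged from -0.42 to -0.32 when 1 library was left out, and the median of the 5 mitochondrial genes was -0.41 without Era+VK replicates 2 and 3. The SHMT1 value, near 0, turned to -0.034 under quantile normalization, -0.00019 when rescaled without mitochondrially encoded genes, -0.030 under median-of-ratios scaling and -0.056 without Era+VK replicates 2 and 3, and ranged from -0.038 to 0.030 when 1 library was left out. The cause of these differences was not tested.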
